A study of Mus musculus with 6 samples.

Results

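Collagen and extracellular matrix genes of the liver are described here through 7 genes, *Col1a1*, *Col3a1*, *Col4a1*, *Nid2*, *Fbln5*, *Aebp1* and *Mrc2*, out of the 257 genes in a table of RNA-seq counts. The 7 genes were picked by their known role in the matrix, with earlier results of these data known. They were thus not picked blind to the contrast described here, and all 7 lie on its lower side. The genes of the table appear to have been selected on the difference between the groups compared here, which did not overlap in 255 of the 257. The rule of selection is not given in the sources used here. The counts below are therefore treated as the values that chose the genes. They are given as a description, with no p-value for any of the 7 and no conclusion drawn from them. All 7 passed the filter on low counts, which removed none of the 257 genes.
The samples were livers of wild-type C57BL/6J mice injected with an adeno-associated virus (AAV) and fed a high-fat diet (HFD) for 13 weeks. The AAV carried *Zrsr1*, a gene for a splicing factor, behind the TBG promoter in 3 TBG-*Zrsr1* mice, and was the vector control in 3 TBG-Vec mice, whose library names carry the letters GFP. The age of the mice is not given in the sources used here. The comparison asked which liver transcripts differ when hepatocytes carry extra *Zrsr1* under an obesogenic diet.
The TBG promoter is active in hepatocytes, while RNA was taken from whole liver, so the counts pool all liver cells. Fewer cells of a type and less RNA per cell cannot be told apart in such samples.
The extracellular matrix of the liver consists of fibrillar collagens in the portal tracts and the space of Disse, of basement membranes around vessels and bile ducts, and of glycoproteins that join these networks. Hepatic stellate cells and portal fibroblasts are the main sources of fibrillar collagen, and endothelial cells contribute much of the basement membrane collagen. When matrix is laid down faster than it is taken up and degraded, the liver becomes fibrotic.

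*Zrsr1*, the gene carried by the vector, was counted 194, 197 and 202 times in TBG-Vec mice 1, 2 and 3 and 4383, 4479 and 4405 times in TBG-*Zrsr1* mice 1, 2 and 3. Each library thus matched its label. The total over the listed genes was 264103, 283414 and 281277 counts for TBG-Vec mice 1, 2 and 3, and 231429, 174448 and 227278 counts for TBG-*Zrsr1* mice 1, 2 and 3. *Scd1* alone made up 47.3, 46.8 and 47.1% of the total in TBG-Vec mice 1, 2 and 3. In TBG-*Zrsr1* mice 1, 2 and 3 it made up 40.1, 30.6 and 43.0%. Since these sums cover a selected list, they are not sequencing depths, and the depth of the libraries is unknown. The counts were compared as deposited, without rescaling, and whether they had already been scaled between libraries is not given in the sources used here. If they had, the Poisson errors below would not apply to them as given. In 5 of the 14 groups of 3 values of the matrix genes the SD was below the Poisson SD. With 3 values this also arises from counting alone, so it does not tell whether the counts had been scaled.
In each of the 7 matrix genes, all 3 TBG-*Zrsr1* mice had fewer counts than all 3 TBG-Vec mice. The same holds for 73.9% of the 257 listed genes, and nothing is read from the 7 of 7, since the genes appear selected on this contrast. The separation holds for the counts as deposited. After division by the total over the listed genes, the groups overlapped in 5 of the 7 genes and did not in *Col1a1* and *Col3a1*. That total is in large part *Scd1*, whose mean in TBG-*Zrsr1* mice was itself 62.6% of that in TBG-Vec mice. How many of all listed genes overlapped after this division is not given here, so nothing is read from the 5 of 7. Together the 7 genes had 1041, 1126 and 1365 counts in TBG-Vec mice 1 to 3 and 846, 628 and 593 counts in TBG-*Zrsr1* mice 1 to 3. The mean of these sums in TBG-*Zrsr1* mice was 58.5% of that in TBG-Vec mice (1177 ± 168 against 689 ± 137, SD, n = 3 each).

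**Figure D1:**
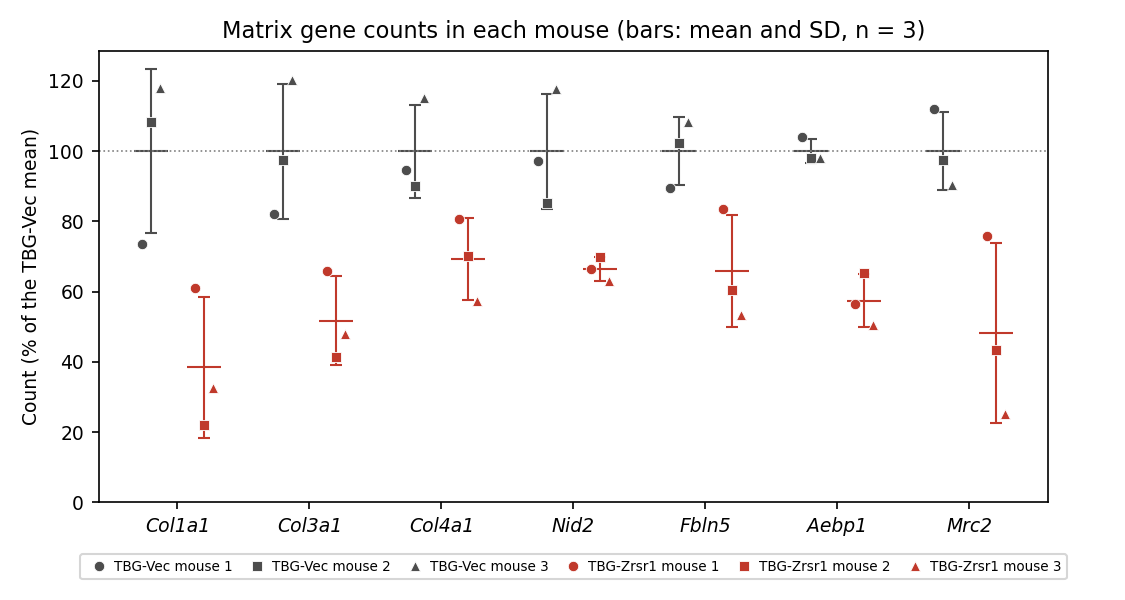
Counts of the 7 matrix genes in each mouse, as a percentage of the TBG-Vec mean of the gene on the vertical axis, with the genes on the horizontal axis. Symbols are single mice, and horizontal bars with whiskers are the mean and SD of 3 mice. TBG-Vec mice lie between 73.6% and 120%, and TBG-*Zrsr1* mice between 22.2% and 83.7%, with no overlap within any of the 7 genes in the counts as deposited.

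Among the fibrillar collagens, *Col1a1* encodes the alpha1 chain of type I collagen, the most abundant collagen of scar tissue. *Col1a1* had 93, 137 and 149 counts in TBG-Vec mice 1, 2 and 3 and 77, 28 and 41 counts in TBG-*Zrsr1* mice 1, 2 and 3. TBG-Vec mouse 1 was the lowest of the controls and TBG-*Zrsr1* mouse 1 the highest of its group, so the groups came close to each other without overlapping, while mouse 2 was lowest. The mean in TBG-*Zrsr1* mice was 38.5% of the TBG-Vec mean (126 ± 29.5 against 48.7 ± 25.4 counts, SD, n = 3 each), and the log2 fold change was −1.37 with a standard error of 0.29. By this ratio *Col1a1* ranked 2 among the 257 genes, counted from the lowest.
*Col3a1* encodes the chain of type III collagen, which forms thin reticular fibres together with type I collagen. Its counts were 348, 413 and 510 in TBG-Vec mice 1, 2 and 3 and 279, 176 and 203 in TBG-*Zrsr1* mice 1, 2 and 3. As for *Col1a1*, mouse 1 was the highest and mouse 2 the lowest TBG-*Zrsr1* mouse, TBG-Vec mouse 1 was the lowest control, and the groups did not overlap. The mean was 51.8% of that in TBG-Vec mice (424 ± 81.5 against 219 ± 53.4 counts, SD, n = 3 each), with a log2 fold change of −0.95 (standard error 0.21).
The ratio of *Col1a1* to *Col3a1* counts within a library does not depend on scaling between libraries. It was 0.267, 0.332 and 0.292 in TBG-Vec mice 1, 2 and 3 and 0.276, 0.159 and 0.202 in TBG-*Zrsr1* mice 1, 2 and 3. TBG-*Zrsr1* mouse 1 lay within the TBG-Vec range and the other two below it, so the groups overlapped in this ratio.

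The basement membrane genes were *Col4a1* and *Nid2*. *Col4a1* encodes the alpha1 chain of type IV collagen, the network-forming collagen of basement membranes. It was counted 415, 395 and 504 times in TBG-Vec mice 1, 2 and 3 and 353, 307 and 251 times in TBG-*Zrsr1* mice 1, 2 and 3. TBG-Vec mouse 3 stood above the other controls, TBG-*Zrsr1* mouse 3 was the lowest of all, and the groups did not overlap. *Col4a1* had the smallest difference of the 7 genes, with a mean at 69.3% of that in TBG-Vec mice (438 ± 58.0 against 304 ± 51.1 counts, SD, n = 3 each) and a log2 fold change of −0.53 (standard error 0.18).
*Nid2* encodes nidogen-2, a glycoprotein that links laminin to type IV collagen. Its counts were 57, 50 and 69 in TBG-Vec mice 1, 2 and 3 and 39, 41 and 37 in TBG-*Zrsr1* mice 1, 2 and 3. The TBG-*Zrsr1* mice were closely spaced, with an SD of 2.0 counts where counting alone gives 6.24, and all lay below the lowest control, mouse 2. The mean was 66.5% of the TBG-Vec mean (log2 fold change −0.59, standard error 0.18).
The ratio of *Col4a1* to *Col3a1* counts was 1.19, 0.956 and 0.988 in TBG-Vec mice 1, 2 and 3 and 1.27, 1.74 and 1.24 in TBG-*Zrsr1* mice 1, 2 and 3. The groups did not overlap, but TBG-Vec mouse 1 and TBG-*Zrsr1* mice 1 and 3 were close, and TBG-*Zrsr1* mouse 2 stood above all others. These ratios come from the counts that appear to have chosen the genes. The ratio of *Nid2* to *Col4a1*, both of the basement membrane, overlapped between the groups (0.134 ± 0.00609 against 0.130 ± 0.0187, SD, n = 3 each).

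*Fbln5* encodes fibulin-5, an integrin-binding glycoprotein needed for the assembly of elastic fibres. It had 62, 71 and 75 counts in TBG-Vec mice 1, 2 and 3 and 58, 42 and 37 counts in TBG-*Zrsr1* mice 1, 2 and 3. TBG-*Zrsr1* mouse 1 lay only 4 counts under the lowest control, mouse 1, the same gap as for *Mrc2* and the smallest among the 7 genes, and mice 2 and 3 lay further below. The mean was 65.9% of the TBG-Vec mean (log2 fold change −0.60, standard error 0.19).
*Aebp1* encodes a secreted collagen-binding protein, also called ACLP, that is made by fibroblasts. Its counts were 35, 33 and 33 in TBG-Vec mice 1, 2 and 3 and 19, 22 and 17 in TBG-*Zrsr1* mice 1, 2 and 3. The controls were nearly equal, with an SD of 1.15 counts against a counting error of 5.80, and the groups did not overlap. The exact 95% Poisson interval of the 22 counts of TBG-*Zrsr1* mouse 2 reaches 33.3, the level of TBG-Vec mice 2 and 3. The mean was 57.4% of the TBG-Vec mean (log2 fold change −0.80, standard error 0.19), the median of the 7 genes.
*Mrc2* encodes the endocytic receptor Endo180, through which fibroblasts and other mesenchymal cells take up collagen fragments. It was counted 31, 27 and 25 times in TBG-Vec mice 1, 2 and 3 and 21, 12 and 7 times in TBG-*Zrsr1* mice 1, 2 and 3. TBG-*Zrsr1* mouse 1 was close to the controls and mouse 3 furthest below them, without overlap. The 7 counts of mouse 3 have an exact 95% Poisson interval from 2.81 to 14.4, and that of the 21 counts of mouse 1 reaches 32.1, above all 3 controls. The mean was 48.2% of the TBG-Vec mean (27.7 ± 3.06 against 13.3 ± 7.09 counts, SD, n = 3 each), and the log2 fold change was −1.05 (standard error 0.29).

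In the edgeR fit over all listed genes, a gene was called at a Benjamini-Hochberg adjusted p below 0.05 together with a change of more than 1.5-fold. This rule, given for the whole table, called 6 of the 7 genes lower, and it called 42.0% of the listed genes lower. *Col4a1* stayed under the 1.5-fold change. With one mouse left out, *Fbln5* lost its call in 4 of 6 fits and *Nid2* in 2 of 6, while *Col4a1* gained one in 2 of 6. Listed genes called lower fell from 108 to 67 without TBG-*Zrsr1* mouse 2. The count of 6 is not a result about these genes, because the genes appear to have been selected on the contrast. The median log2 fold change was −0.80 over the 7 genes, −0.54 over all 257 and −0.61 over the 192 genes that were lower. Rescaling of the libraries over the listed genes, which moved the median of all genes by 0.39 to 0.52, left *Col1a1* alone past the threshold and brought *Col4a1* to between −0.12 and −0.0011, and whether the libraries differ in depth was not tested.

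**Figure D2:**
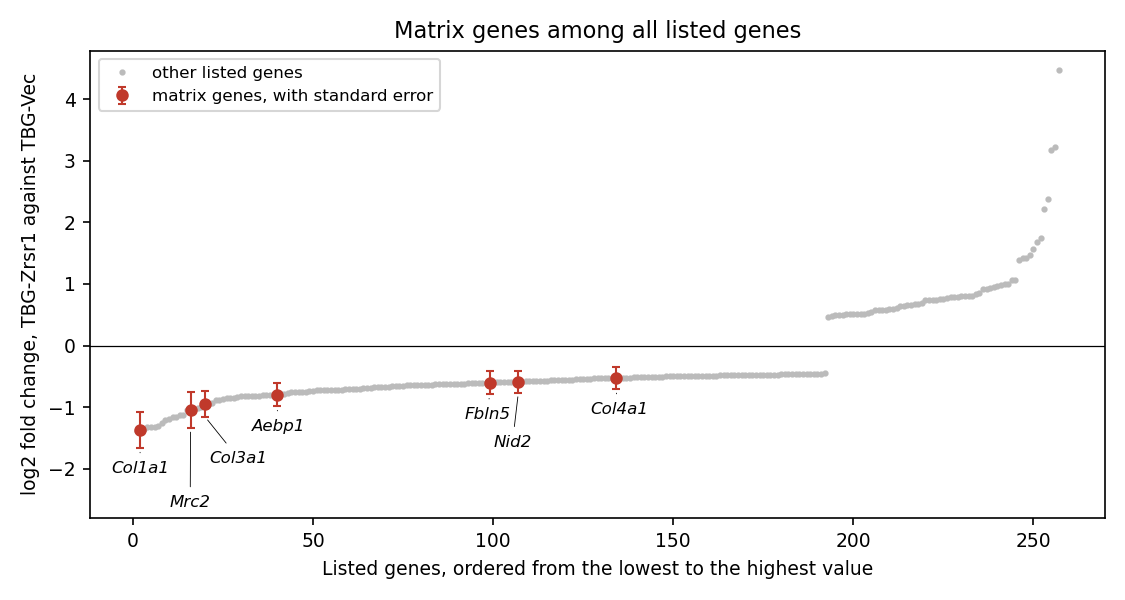
Log2 fold changes between TBG-*Zrsr1* and TBG-Vec mice on the vertical axis, for the 257 listed genes ordered from the lowest to the highest on the horizontal axis. The 7 matrix genes are red, with whiskers for the standard error, and run from −1.37 for *Col1a1* to −0.53 for *Col4a1*.

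The 3 TBG-*Zrsr1* mice did not rank alike in all of the 7 genes. The lowest count was in mouse 2 for *Col1a1* and *Col3a1* and in mouse 3 for the other 5 genes, and mouse 1 was highest in 5 of 7. Over the 185 other genes that were lower in TBG-*Zrsr1* mice, mouse 2 had the lowest count in 77.8%, mouse 3 in 15.1% and mouse 1 in 11.4%, with ties counted for each mouse. As the median log2 ratio to the TBG-Vec mean, the 7 genes stood at −0.59, −0.72 and −0.99 in TBG-*Zrsr1* mice 1, 2 and 3, and the 185 other genes at −0.52, −0.79 and −0.55. Mouse 3 was thus lower for the matrix genes than for the others, and this difference between the lists was not tested. In TBG-Vec mice 1, 2 and 3 the medians of the 7 genes were −0.078, −0.035 and 0.20, where mouse 3 was highest in 5 of 7.
The profiles most like the mean of the 7 genes were those of *Maged2*, *Ntn3*, *LOC108167751*, *Hoga1* and *Nagk*. Likeness was measured as the root mean square difference over the 6 mice between log2(count + 1) profiles, each centred on its own mean. It was 0.0653 for *Maged2*, 0.112 for *Ntn3*, 0.118 for *LOC108167751*, 0.132 for *Hoga1* and 0.135 for *Nagk*. The first 3 were closer to that mean than any of the 7 genes themselves, of which *Fbln5* was nearest at 0.130 and *Col1a1* farthest at 0.440.

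Lists of matrix genes written from general knowledge held 286 gene symbols, a few of them older and newer names of the same gene. Of these symbols 10 are in the table, namely the 7 genes and *P4ha1*, *Fras1* and *Inhbe*. The other 276 symbols were not analysed here. *P4ha1*, for a catalytic subunit of the prolyl 4-hydroxylase that stabilises collagen, had 168, 169 and 169 counts in TBG-Vec mice 1, 2 and 3 and 302, 235 and 214 counts in TBG-*Zrsr1* mice 1, 2 and 3. It was higher in every TBG-*Zrsr1* mouse, most in mouse 1, opposite to the collagens. Its log2 fold change was 0.57 (standard error 0.17), under the 1.5-fold change, and it passed that change under all 4 rescalings.
*Fras1*, for a basement membrane protein that anchors epithelia, had 43, 34 and 45 counts in TBG-Vec mice 1, 2 and 3 and 34, 24 and 22 counts in TBG-*Zrsr1* mice 1, 2 and 3. The groups met at 34 counts, in TBG-Vec mouse 2 and TBG-*Zrsr1* mouse 1. Its log2 fold change was −0.61 (standard error 0.21), and it came to between −0.22 and −0.091 under the 4 rescalings and between −0.82 and −0.49 with one mouse left out, falling under the threshold in all 4 of the former and in 4 of the 6 latter fits.
*Inhbe*, for the inhibin beta E subunit secreted by hepatocytes, a member of the TGF-beta superfamily, had 658, 784 and 765 counts in TBG-Vec mice 1, 2 and 3 and 489, 530 and 569 counts in TBG-*Zrsr1* mice 1, 2 and 3. The groups did not overlap, and the log2 fold change was −0.47 (standard error 0.16), which turned slightly positive under 3 of the 4 rescalings. By list, 3 of 39 symbols of fibrillar collagens and their processing, 1 of 33 of other collagens and 2 of 25 of the basement membrane are in the table. So are 2 of 56 symbols of elastic fibres and matrix glycoproteins, 1 of 29 of matrix receptors and 1 of 27 of TGF-beta signalling. None of 30 proteoglycans and 47 matrix proteases and inhibitors is in the table. The lists are not complete. *Ntn3*, named above for its profile, is on none of them, although *Ntn1* and *Ntn4* are on the basement membrane list.

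The cell types that make matrix could not be followed by their markers, since 0 of 27 markers of hepatic stellate cells and fibroblasts and 0 of 26 markers of liver endothelial cells are in the table. The same applies to 10 markers of cholangiocytes and 14 of lymphocytes and neutrophils. Those of other lists are *Cd163* for macrophages (1 of 18), *Krt8* for mesothelial cells (1 of 8), *G6pc* for hepatocytes (1 of 18) and *Cfd* for adipocytes (1 of 10). Of the 18 listed hepatocyte markers the liver label could thus be checked against *G6pc* alone, the glucose-6-phosphatase of gluconeogenesis, which had 3762, 3664 and 3366 counts in TBG-Vec mice 1, 2 and 3 and 2075, 3130 and 2575 counts in TBG-*Zrsr1* mice 1, 2 and 3. *G6pc* was abundant in every mouse and lower in each TBG-*Zrsr1* mouse (log2 fold change −0.47, standard error 0.19), turning slightly positive under 3 of the 4 rescalings.
*Cd163*, a scavenger receptor of macrophages, had 102, 108 and 60 counts in TBG-Vec mice 1, 2 and 3 and 148, 133 and 183 counts in TBG-*Zrsr1* mice 1, 2 and 3. It was higher in each TBG-*Zrsr1* mouse, most in mouse 3 (log2 fold change 0.78, standard error 0.22). *Krt8*, a keratin that hepatocytes and cholangiocytes also express, had 2244, 2426 and 2402 counts in TBG-Vec mice 1, 2 and 3 and 2045, 1298 and 1757 counts in TBG-*Zrsr1* mice 1, 2 and 3. TBG-*Zrsr1* mouse 2 was the lowest, the groups did not overlap, and the log2 fold change of −0.47 (standard error 0.19) turned slightly positive under TMM rescaling. *Cfd*, complement factor D of adipocytes, had 375, 607 and 100 counts in TBG-Vec mice 1, 2 and 3 and 2397, 1024 and 1626 counts in TBG-*Zrsr1* mice 1, 2 and 3. It was the marker with the largest difference (log2 fold change 2.22, standard error 0.48), with wide spread in both groups. With one mouse left out it ranged from 1.78 to 2.82, the latter without TBG-Vec mouse 2. Whether the cell composition of the livers has a part in the matrix gene counts was not tested.

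To compare levels between genes, mean counts were divided by the spliced length of the canonical transcript in GENCODE M39 (GRCm39). In TBG-Vec mice *Col3a1* had 76.1 ± 14.7 counts per kb and *Col4a1* 66.2 ± 8.77 (SD, n = 3), with overlapping SD ranges. *Col1a1* followed with 21.3 ± 4.97 counts per kb. *Nid2* with 12.0 ± 1.96, *Fbln5* with 11.2 ± 1.07 and *Aebp1* with 8.37 ± 0.287 counts per kb came next, the first pair within their spread, and *Mrc2* was lowest at 4.14 ± 0.457. In TBG-*Zrsr1* mice the order began with *Col4a1* at 45.9 ± 7.72 counts per kb and *Col3a1* at 39.4 ± 9.60, again with overlapping SD ranges. *Col1a1* at 8.21 ± 4.28, *Nid2* at 7.96 ± 0.408 and *Fbln5* at 7.35 ± 1.77 counts per kb came next. The means of *Nid2* and *Fbln5* lay within the spread of *Col1a1*. *Aebp1* at 4.80 ± 0.625 counts per kb also lay within the spread of *Col1a1*, and *Mrc2* had the lowest mean at 1.99 ± 1.06. These spreads are SDs between mice. All genes were counted in the same libraries, so the SDs do not measure how the order of genes varies within a mouse.
On GRCm39, *Col1a1* lies at chr11:94827050-94843868 on the plus strand, with 51 exons, and *Mrc2* (chr11:105182903-105242285, 30 exons) and *Aebp1* (chr11:5811762-5822112, 21 exons) are on the same chromosome and strand. *Col3a1* is at chr1:45350698-45395840 on the plus strand with 51 exons, and *Col4a1* at chr8:11248423-11362826 on the minus strand with 52 exons. *Nid2* is at chr14:19801298-19861855 on the plus strand with 21 exons, and *Fbln5* at chr12:101712556-101785429 on the minus strand with 11 exons. Exons of other genes on the opposite strand cover 11.8% of the exonic bases of *Nid2* (*Rtraf*), 7.18% of *Mrc2*, 4.94% of *Col4a1* (including its head-to-head neighbour *Col4a2*) and 1.08% of *Col3a1*. Reads from those bases cannot be told apart without the strand, and whether the counting used it is not given in the sources used here. A further 1.37% of the exonic bases of *Col3a1* are shared with a gene on its own strand. *Col1a1*, *Aebp1* and *Fbln5* shared no exonic base with another annotated gene.

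The 3 collagens were picked as collagens, and what defines these is the triple helix, in whose coding sequence each triplet of codons opens with a glycine codon (GGN). A script looked for runs of codon triplets that open with GGN in the canonical coding sequence. The longest run had 338 triplets in *Col1a1*, from codon 168 to 1181 of 1453, and 344 triplets in *Col3a1*, from codon 164 to 1195 of 1464. In *Col4a1*, of 1669 codons, the longest run had 40 triplets, a length reached by a pair of runs, and 18 runs of at least 10 triplets lay between codons 43 and 1440, divided by gaps or by shifts of the triplet register at a shared codon. The fibrillar collagens thus have 1 long unbroken run beside a short one, and the network-forming collagen has many shorter ones, although runs cover a like share of codons (73.3% in *Col1a1*, 73.2% in *Col3a1* and 74.1% in *Col4a1*). The longest run in *Nid2*, *Fbln5*, *Aebp1* and *Mrc2* was 2 triplets each. A run of at least 10 triplets is present in 98 of 21770 mouse coding sequences (0.450%), and in the listed genes in these 3 only, among 218 with a scanned sequence.
The first 15 codons of the longest run (in *Col4a1*, of the first of the pair) show the repeat, with the GGN codon of each triplet in capitals, from GENCODE M39 transcripts.
Col1a1, codons 168 to 182: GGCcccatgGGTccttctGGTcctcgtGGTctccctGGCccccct
Col3a1, codons 164 to 178: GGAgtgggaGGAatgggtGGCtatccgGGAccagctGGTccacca
Col4a1, codons 43 to 57: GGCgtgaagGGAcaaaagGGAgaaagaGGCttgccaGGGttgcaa
Each triplet opens with GGN in all 3, and in *Col3a1* the triplets at the start of the stretch also end in a GGN codon, left in lower case.

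**Figure D3:**
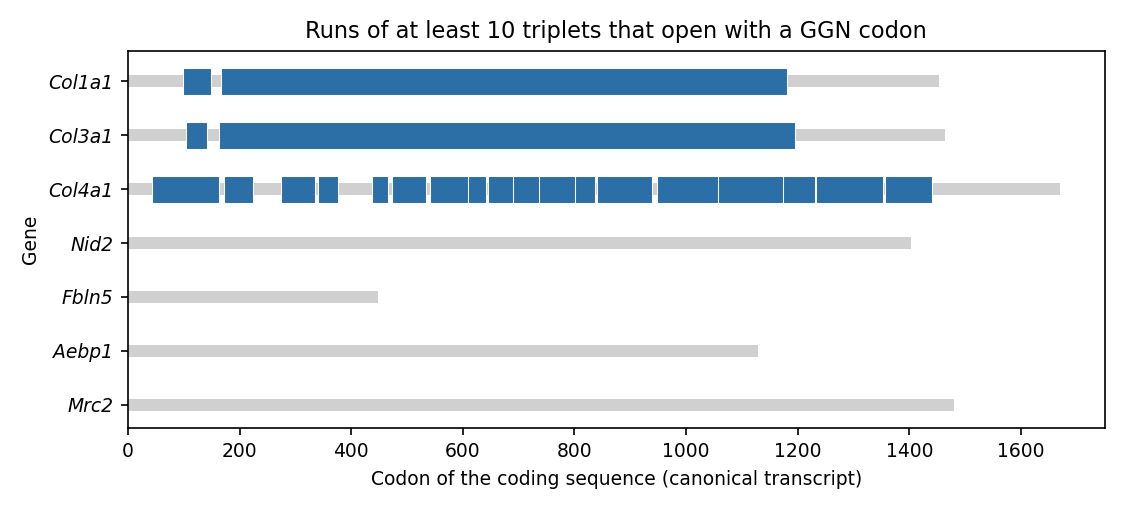
Map of runs of at least 10 codon triplets that open with GGN (blue) on the coding sequences (grey) of the 7 genes, with the codon number on the horizontal axis. *Col1a1* and *Col3a1* have 1 long and 1 short run, *Col4a1* has 18, and the other 4 genes have none.

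Promoters were taken from a table of RefSeq sequences (GRCm38.p6), in which 4 of the 7 genes were matched, *Col3a1*, *Col4a1*, *Aebp1* and *Fbln5*. Those of *Col1a1*, *Nid2* and *Mrc2* were not analysed here. The 250 bases before each start were searched on both strands for the letters CCAAT of the CCAAT box, TATAAA of the TATA box, GGGCGG of the GC box and GGAATG of the TEAD motif, with no overlap between matches in these windows. Among all 32851 promoter windows, 33.8% hold CCAAT, 12.4% TATAAA, 32.7% GGGCGG and 12.6% GGAATG. The windows of the 2 collagens matched, 1 fibrillar and 1 network-forming, are printed with matches in capitals.
Col3a1, chr1:45311288-45311537, plus strand: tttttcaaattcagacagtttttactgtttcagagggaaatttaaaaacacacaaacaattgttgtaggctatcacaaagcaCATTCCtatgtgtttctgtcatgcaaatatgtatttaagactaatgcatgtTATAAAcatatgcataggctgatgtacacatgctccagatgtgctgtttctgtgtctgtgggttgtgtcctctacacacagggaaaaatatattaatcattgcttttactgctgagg
Col4a1, chr8:11312827-11313076, minus strand: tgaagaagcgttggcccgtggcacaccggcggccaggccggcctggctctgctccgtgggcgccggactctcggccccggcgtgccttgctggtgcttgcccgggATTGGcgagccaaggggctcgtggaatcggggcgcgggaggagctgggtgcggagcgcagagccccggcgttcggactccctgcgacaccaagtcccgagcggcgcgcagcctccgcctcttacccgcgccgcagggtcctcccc
*Col3a1* held TATAAA, from 117 to 112 bases before the start, and GGAATG in reverse, from 168 to 163 bases before it, with a GC content of 35.2% against a median of 52.4% over all windows. *Col4a1* held CCAAT in reverse, from 145 to 141 bases before the start, with a GC content of 74.4%. *Aebp1* held none of the motifs, and of the 2 starts of *Fbln5* the one further upstream held CCAAT and a pair of GGGCGG matches. A match is a description of the letters and not a binding site.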

How the data were processed

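Liver RNA of 3 TBG-Vec and 3 TBG-*Zrsr1* mice was sequenced after poly(A) selection. The authors deposited whole-number counts for 257 genes, together with columns named AB, fc and ttest that hold their mean, fold change and p-value, and these were not used. The paper names FastQC, HISAT2 on GRCm39, HTSeq and DESeq2, whereas the submitters' processing notes list Bowtie2, RSEM 1.3.1, DESeq2 1.4.5 and mm10, and which of them made the counts is unsure, as is any scaling before deposit. Columns were assigned through the library names. Replicates are separate mice.
Counts were fitted with edgeR 4.0.16 (quasi-likelihood test, R 4.3.3) with 1 common library size, since the table is a selected list, and p-values were adjusted by Benjamini-Hochberg over 257 genes, fewer than were counted. Standard errors were derived from the size of the log2 fold change and the F statistic (size over root F). The code was tested on simulated data. DESeq2 1.42.0, limma 3.58.1 on log2(count + 1), other scalings, filters and thresholds, a replicate block and each mouse left out were tried. Poisson intervals (scipy 1.17.1) cover counting error only and take the values as unscaled counts. Each pair of replicates differed beyond counting noise (chi-square of at least 2524 on 256 degrees of freedom).
The genes named are the 7 matrix genes, *Zrsr1*, *Scd1*, and listed matrix and marker genes with values. Named too are the 5 profiles most like the mean of the 7. The genes and lists were chosen with earlier results of these data known.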

Additional observations from a re-analysis of the deposited data

How the results depend on the processing

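Scaling changed the results most. Of the 7 matrix genes 6 were past the threshold without rescaling, against 1, *Col1a1*, with TMM, with DESeq2's size factors in edgeR, with equal totals and with DESeq2 and its size factors. Their median log2 fold change moved from −0.80 to −0.28, −0.33, −0.41 and −0.32 in that order. Listed genes past the threshold were 108 lower and 48 higher (69.2% lower) without rescaling, and 10 and 65 (13.3%), 13 and 65 (16.7%), 17 and 65 (20.7%) and 12 and 65 (15.6%) in the same order. A scaling computed over genes that are mostly lower takes out what they share by construction, and which scaling applies to the deposited counts was not tested. No matrix gene changed sign, but over the rescalings *Col4a1* came to between −0.12 and −0.0011, *Nid2* to between −0.19 and −0.068 and *Fbln5* to between −0.21 and −0.084, near 0. *Inhbe* reversed to 0.059 with TMM, 0.0089 with DESeq2's size factors in edgeR and 0.0084 with DESeq2, *G6pc* to 0.080, 0.028 and 0.028, and *Krt8* to 0.035 with TMM.
With a mean count of at least 50, 4 of the 7 genes and 176 of the listed genes were tested, so 3 of them passed the threshold, with 62 listed genes lower and 30 higher. With a fold change above 2, 2 of the 7 passed (*Col1a1* and *Mrc2*), with 19 listed genes lower and 15 higher. With the adjusted p alone 7 of 7 passed, with 192 listed genes lower and 65 higher. With limma 5 of the 7 were past the threshold, without *Nid2*, with 104 listed genes lower and 46 higher. With DESeq2 without scaling 6 of the 7 were past it, with 108 listed genes lower and 48 higher. The filter on low counts removed no gene.
With one mouse left out, from 4 to 7 of the 7 genes were past the threshold, with a median from −0.81 to −0.71, and from 67 to 130 listed genes were lower. The 4 came without TBG-Vec mouse 3 and without TBG-*Zrsr1* mouse 3, and the 67 without TBG-*Zrsr1* mouse 2. In these fits *Mrc2* ranged from −1.53 to −0.74 and *Col1a1* from −1.87 to −1.10. Single values of the 7 genes fell back under the threshold 20 times under the rescalings, 6 times with a mouse left out and 2 times under other alternatives, and passed it newly 2 times, with a mouse left out. Except for the construction of the scalings and filters, the cause was not tested.
With the replicate block 5 of the 7 genes were past the threshold, without *Nid2*, with a median of −0.80, and 107 listed genes were lower. Correlations of same-numbered mice over the listed genes, each group centred on its own mean, were −0.11, 0.031 and 0.055. Whether same-numbered mice were paired is not given in the sources used here. These correlations cannot decide it, since they rest on 3 mice per group and on genes that appear selected on the group contrast.
Depth is unknown, so low counts such as those of *Mrc2* limit precision, with counting error at 27.4% of its TBG-*Zrsr1* mean.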
